A study of Mus musculus with 4 samples.

Results

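The immediate early response genes are 10 genes, Fos, Jun, Junb, Egr1, Atf3, Ier2, Ier3, Dusp1, Btg2 and Myc, measured here in the liver of 4 ABCA1-transgenic mice with 1 array per mouse. They were chosen by name, and every probe set that the platform annotation assigns to 1 of these symbols alone was used. This gave 12 probe sets of 22626 that are not controls, and 10 genes of the 12393 with a symbol of their own. Jun and Btg2 each had 2 probe sets and the other 8 genes had 1. All 4 animals were ABCA1-TG males of strain C57BL/6, 5 to 6 months old and fed the NIH36 diet. ABCA1 is the transporter that passes cellular cholesterol to apolipoprotein A-I. The series title places the mice on an LDL receptor -/- background, whereas the sample descriptions give +/-. The sources used here do not name the promoter that drives the transgene. The design also names wild-type controls, which were not analysed here, so the values below compare the 4 transgenic livers with each other. They are called mouse 1 to mouse 4 after the replicate numbers in the titles, which do not say more about the animals, so the spread between them may be technical in part.

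Immediate early genes are transcribed within minutes of a growth factor, cytokine, hormone or stress signal, without new protein synthesis. MAP kinases and cyclic AMP signalling act on factors already bound at their promoters, and the resulting mRNAs are short-lived. In liver they are known for their surge after partial hepatectomy and injury. Fos, Jun, Junb and Atf3 encode bZIP proteins that pair to form AP-1 and related dimers, Egr1 encodes a zinc finger activator and Myc a growth-promoting E-box factor. Dusp1 encodes a phosphatase that switches MAP kinases off, Btg2 an antiproliferative adaptor of the mRNA deadenylation machinery, Ier3 a regulator of survival signalling and Ier2 a nuclear protein of the same early wave.

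The cyclic AMP response element (CRE), the site bound by CREB and ATF proteins, is one of the elements through which these genes are switched on. RefSeq sequences of build GRCm38.p6 were at hand for 7 of the 10 genes, all but Egr1, Ier2 and Myc. The 250 bases before the annotated start were searched on both strands. The full CRE, TGACGTCA, was found in Dusp1 and Btg2, and in 1.55% of all 32851 such windows. Its core, TGACGT, which the full CRE contains, was found in 4 of the 7 genes (Fos, Atf3, Dusp1 and Btg2) and in 6.47% of all windows. The Jun window held TGACATCA, the sequence known as the element through which AP-1 acts back on Jun, as did 2.93% of all windows. These 5 windows, in which no response to a signal was measured, are shown because they hold letters of the full CRE, its core or TGACATCA. They are written 5′ to 3′ in the direction of transcription, with those letters in capitals on whichever strand they match.
Fos, chr12:85473640-85473889, plus strand: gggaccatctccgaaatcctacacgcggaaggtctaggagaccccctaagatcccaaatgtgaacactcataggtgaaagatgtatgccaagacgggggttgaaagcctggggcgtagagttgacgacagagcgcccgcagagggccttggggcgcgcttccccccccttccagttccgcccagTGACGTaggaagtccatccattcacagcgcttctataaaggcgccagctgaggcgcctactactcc
Jun, chr4:95052223-95052472, minus strand: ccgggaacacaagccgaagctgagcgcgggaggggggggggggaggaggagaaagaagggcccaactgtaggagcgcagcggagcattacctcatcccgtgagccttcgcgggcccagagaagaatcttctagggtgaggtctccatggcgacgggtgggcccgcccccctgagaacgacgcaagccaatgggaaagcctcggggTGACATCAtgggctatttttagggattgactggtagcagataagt
Atf3, chr1:191183334-191183583, minus strand: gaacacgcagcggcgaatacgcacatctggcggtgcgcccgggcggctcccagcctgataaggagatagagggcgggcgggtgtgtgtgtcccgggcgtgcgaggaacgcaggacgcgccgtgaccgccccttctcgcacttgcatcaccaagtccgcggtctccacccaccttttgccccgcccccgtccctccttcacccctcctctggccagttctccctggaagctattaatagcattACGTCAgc
Dusp1, chr17:26508473-26508722, minus strand: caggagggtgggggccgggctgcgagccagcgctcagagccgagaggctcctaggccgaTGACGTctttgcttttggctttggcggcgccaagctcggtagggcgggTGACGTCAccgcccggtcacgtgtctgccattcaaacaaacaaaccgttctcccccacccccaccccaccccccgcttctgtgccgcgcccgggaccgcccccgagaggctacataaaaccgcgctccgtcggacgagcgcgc
Btg2, chr1:134079156-134079405, minus strand: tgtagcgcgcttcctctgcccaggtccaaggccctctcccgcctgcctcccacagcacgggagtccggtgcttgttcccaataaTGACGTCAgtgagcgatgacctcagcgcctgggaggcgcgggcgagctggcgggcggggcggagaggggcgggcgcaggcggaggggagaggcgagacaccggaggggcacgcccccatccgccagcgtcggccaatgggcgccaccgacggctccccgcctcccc
Counted back from the start, the core CRE lay at -66 to -61 in Fos, and at -8 to -3 in Atf3, where it reads on the other strand. The full CRE lay at -143 to -136 in Dusp1, which held a further core CRE at -191 to -186, and at -166 to -159 in Btg2. The Jun element lay at -45 to -38. The TATA box TATAAA was present in Fos only of the 7 windows and in 12.4% of all windows. The AP-1 element TGANTCA was in 0 of the 7 windows and in 6.75% of all, and the CArG box, the site of serum response factor, was in 0 of 7 and in 1.47% of all. A match or its absence in these letters is a description of the window, and bases further upstream were not searched.

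The arrays were alike in their bulk. The median signal ran from 267.3 to 305.35 and Pearson's r between arrays, across probe sets, from 0.950 to 0.959. The 9 hepatocyte markers measured fit the liver label, with Alb, serum albumin, at 15.86 to 16.06 log2 and 0 of 9 with a range over 1 log2. Abca1, the transgene's gene, measured 12.82 ± 0.17 (SD, n = 4) on its brightest probe set, and 8.87 ± 0.24 and 8.06 ± 0.25 on its 2 others. Whether these probe sets read the transgene was not tested. Mouse 1 stood apart in markers of other cells and in control ratios, which are given beside Myc. A list's median is that of a mouse minus the mean of the other 3, and its genes counted as higher are those above that mean. Mouse 4 was lower in lymphocyte markers, at a median of -0.62 with 1 of 9 higher (-0.34 without mouse 3), and in neutrophil markers, at -0.43 with 2 of 8 higher. Mouse 2 was higher in exocrine pancreas markers, at 1.64 with 10 of 10 higher, and in hepatocyte markers, at 0.14 with 9 of 9. It was also higher in skeletal muscle markers, at 1.42 with 13 of 13 (0.39 with 11 of 13 without mouse 1). Macrophage and Kupffer cell markers were lower there, at -0.20 with 2 of 11 higher. The part of these markers in the members' values in mouse 2 was not tested. Endothelial, stellate cell and erythroid markers had medians within 0.24 of the other 3 mice in every animal. Adipocyte markers had their highest median in mouse 2, at 0.91 with 4 of 6 higher, but 2 of the 6 were lowest there. Their summed signal was 1433 in mouse 2 and 1470 in mouse 4.

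Signals are log2 intensities as deposited, and an error is the SD between the 4 mice. Levels of different probe sets are not set against each other, since probe sets differ in binding. The spread between mice ran from an SD of 0.08 log2 for Junb to 1.13 for Atf3. The median SD of the 10 members was 0.44, against 0.26 for all 12393 genes. The SD divided by the prior SD that limma fits at the same level, called the relative spread, had a median of 1.28 in the members and 0.96 in all genes.

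Among the AP-1 genes, Junb was the steadiest and Atf3 the most variable between mice. Fos, the inducible partner of the Jun proteins, measured 6.63, 7.55, 7.52 and 7.33 log2 in mice 1 to 4. Mouse 1 lay apart at 0.84 below the mean of the other 3, and without it the range of the rest was 0.22. The SD was 0.43 and the relative spread 1.04, so that Fos varied about as much as other probe sets of its level. Jun differed between its 2 probe sets. On the probe set of higher mean signal it measured 9.03, 9.55, 8.68 and 9.06, with mouse 2 highest, and on the other it measured 8.89, 8.37, 8.52 and 8.71, with mouse 2 lowest. The F-test of a difference between mice shared by both probe sets, with limma's moderated variance, gave an adjusted p of 0.841. Junb, a Jun paralogue that often opposes Jun in growth control, measured 8.42, 8.29, 8.34 and 8.22, a 1.14-fold range over 4 animals.

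Atf3, a stress-induced repressor and activator that pairs with Jun proteins, measured 5.25, 7.06, 7.96 and 6.87 log2 in mice 1 to 4. The linear signals were 38.0, 133.0, 248.6 and 117.3. Mouse 3 was highest and mouse 1 lowest, at 6.54-fold between them, and mice 2 and 4 lay close together. The SD was 1.13 (95% interval 0.64 to 4.21, n = 4) and the relative spread 2.21. Over all probe sets the limma test of excess spread gave an adjusted p of 0.977. Low signals vary widely on these arrays: among the 2772 probe sets within 0.5 log2 of the mean level of Atf3, 52.2% had a range over 1 log2. With signals under 64 raised to 64 the range of Atf3 was 1.96 log2, against 2.71 as deposited, and without mouse 1 it was 1.08.

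**Figure D1:**
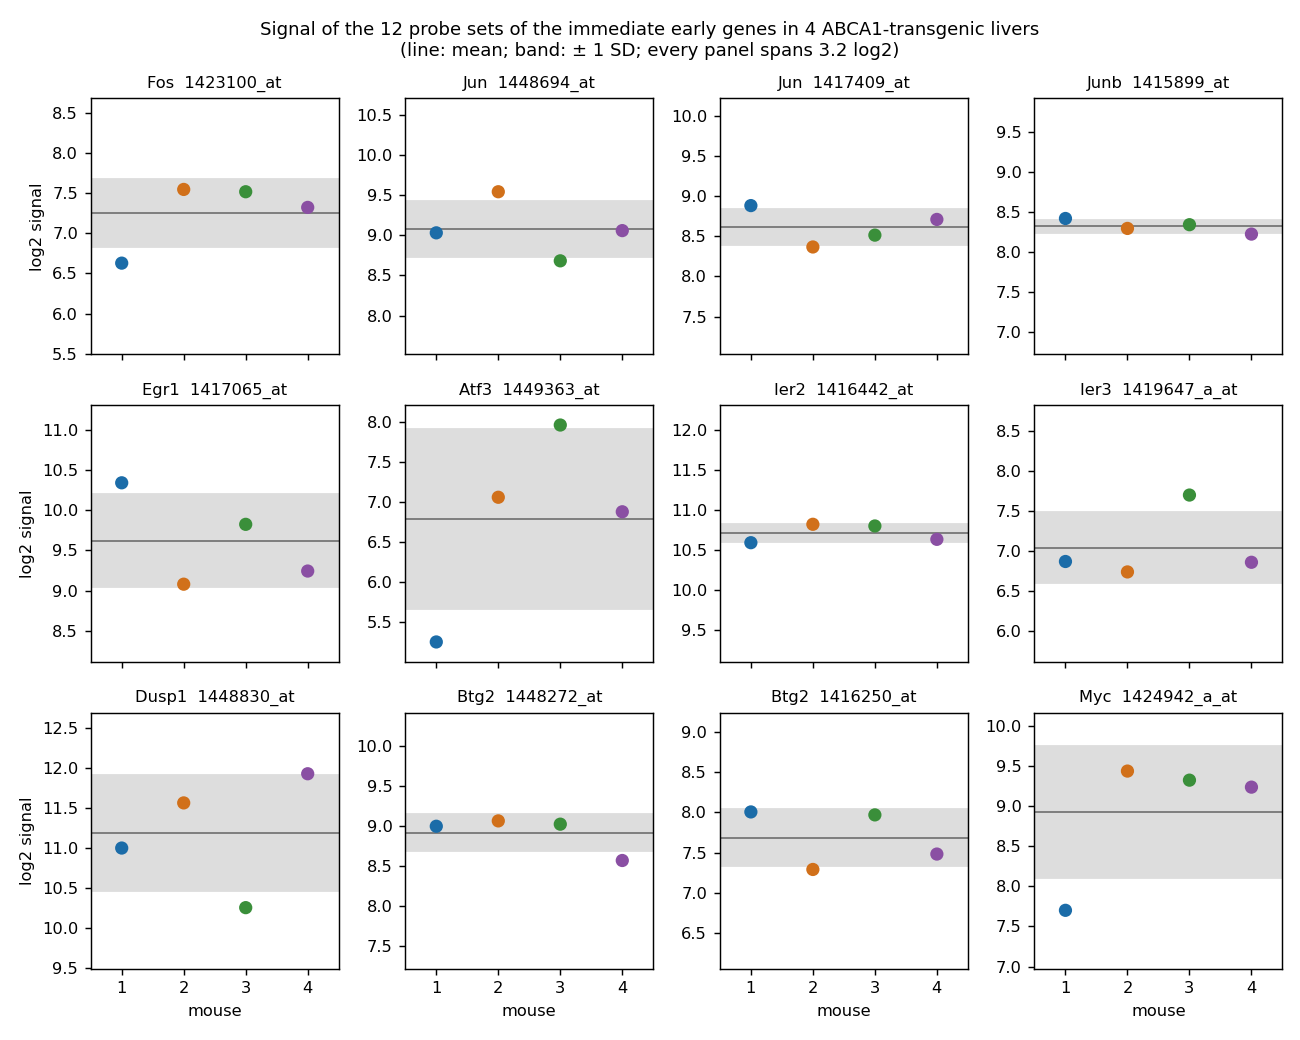
Log2 signal of each of the 12 probe sets in mice 1 to 4, 1 point per mouse, with the mean as a line and ± 1 SD as a band; every panel spans the same log2 distance. Myc, Fos and Atf3 are lowest in mouse 1, Dusp1 is lowest in mouse 3, and Junb and Ier2 are nearly level.

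Egr1 was highest in mouse 1. This activator, which links MAP kinase signals to growth and metabolic genes, measured 10.35, 9.08, 9.83 and 9.24 log2 in mice 1 to 4. Mice 1 and 3 lay above mice 2 and 4, with 2.41-fold between the highest and lowest animal. Without mouse 1 the range of Egr1 was 0.75 log2, against 1.27 with it. The SD was 0.58 (95% interval 0.33 to 2.16, n = 4) and the relative spread 2.73, with an adjusted p of 0.977 by the limma test. Of the 2839 probe sets within 0.5 log2 of its level, 5.39% had a range over 1 log2. Egr1 and Fos, which share upstream kinases, lay at opposite ends in mouse 1, at 0.96 above and 0.84 below the mean of the other 3 animals.

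Myc, the driver of ribosome production and cell growth, measured 7.70 in mouse 1 and 9.44, 9.33 and 9.24 in mice 2 to 4. The 3 other animals lay within 0.20 log2 of each other, and mouse 1 lay 1.63 below their mean. The highest and lowest animal differed by 3.34-fold, the SD was 0.82 (95% interval 0.47 to 3.06, n = 4) and the relative spread was 3.42. By the limma test over all probe sets the adjusted p was 0.977. A range over 1 log2 was found in 7.83% of the 3204 probe sets within 0.5 log2 of its level.

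Mouse 1, in which Myc, Fos and Atf3 were lowest, also stood apart in material other than hepatocytes and in several control signals. Skeletal muscle markers had a median 3.37 log2 below the other 3 mice there, with 0 of 13 higher and a summed signal of 1261, against 8278 to 11695 in mice 2 to 4. Bile duct markers were at -0.63 with 0 of 7 higher, on a summed signal of 8020 against 7933 to 10370, and exocrine pancreas markers at -0.99 with 0 of 10 higher (-0.49 with 2 of 10 without mouse 2), on 2050 against 2315 to 7469. The 3-prime to 5-prime log2 ratio of the Gapdh control was 1.67, against 1.94 to 2.03, and that of the pyruvate carboxylase control 4.09, against 4.71 to 4.79. That of the Actb control lay closer, at 1.82 against 1.88 to 2.12. The 18S control signal was 9.95, against 8.75 to 8.98. None of these markers was listed at 0 in any mouse. Their part in the values of Myc, Fos, Atf3 and Egr1 was not tested. In whole liver, fewer cells of a type and less RNA per cell cannot be told apart.

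The growth-restraining members Dusp1 and Btg2 did not share an order of the mice. Dusp1 measured 11.00, 11.56, 10.26 and 11.93 in mice 1 to 4, or 2047.7, 3026.8, 1222.2 and 3896.0 as linear signals. Mouse 4 was highest and mouse 3 lowest, at 3.19-fold between them, and no animal matched another closely. Its SD of 0.73 (95% interval 0.41 to 2.72, n = 4) was 4.07 times the prior SD, the highest relative spread among the members. Of the 1696 probe sets within 0.5 log2 of its level, 3.77% had a range over 1 log2, and 99.4% had a smaller SD. The adjusted p by the limma test was 0.977. Its signals were far above the low range in every animal, so that raising signals under 64 left its range at 1.67 log2, and without mouse 3 it was 0.93.

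Btg2, which p53 also induces, measured 8.99, 9.06, 9.02 and 8.57 in mice 1 to 4 on its probe set of higher mean signal, and 8.01, 7.29, 7.97 and 7.48 on the other. Mouse 4 was below mice 1 and 3 on both probe sets, while mouse 2 was highest on one and lowest on the other. The F-test of a shared difference gave an adjusted p of 0.730. Both probe sets had a relative spread near 1, at 0.96 and 1.03. Dusp1 and Btg2, whose windows both hold the full CRE, thus differed in relative spread, a difference that was not tested.

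Ier2 was nearly level between mice, and Ier3 was highest in mouse 3. Ier2, known to rise early after growth factor treatment, measured 10.59, 10.82, 10.80 and 10.64 in mice 1 to 4, a 1.17-fold range with an SD of 0.12 and a relative spread of 0.62. Ier3, also known as IEX-1 and induced by NF-kappaB, measured 6.87, 6.74, 7.70 and 6.86. Mouse 3 lay 0.88 log2 above the mean of the other 3, whose range was 0.13. The SD of 0.44 was 0.97 times the prior SD at that low level. In mouse 3, where Ier3 and Atf3 were highest, markers of several other cell types lay above the mean of the other 3 mice. Macrophage and Kupffer cell markers were at a median of 0.22 with 11 of 11 above that mean (9 of 11 without mouse 1 or without mouse 2), on a summed signal of 45932 against 36764 to 44730. Lymphocyte markers were at 0.36 with 7 of 9 above it (0.04 without mouse 4), on 1503 against 959 to 1199, and neutrophil markers at 0.35 with 6 of 8, on 2076 against 1396 to 1804. Bile duct markers were at 0.35 with 6 of 7 (0.08 without mouse 1), on 10370 against 7933 to 8264, and stellate cell and fibroblast markers at 0.23 with 7 of 10, on 18438 against 15957 to 17876. Skeletal muscle markers were at 0.73 with 11 of 13 above it, but at -0.62 with 2 of 13 without mouse 1. Endothelial markers were at 0.07 with 5 of 10. Medians were negative for exocrine pancreas (-0.54), hepatocyte (-0.07), adipocyte (-0.19, but 0.10 without mouse 2) and erythroid markers (-0.21, but 0.19 without mouse 1). The median over all genes in mouse 3 was 0.09. None of these markers was listed at 0 in any mouse, and their part in the values of Ier3 and Atf3 was not tested.

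**Figure D2:**
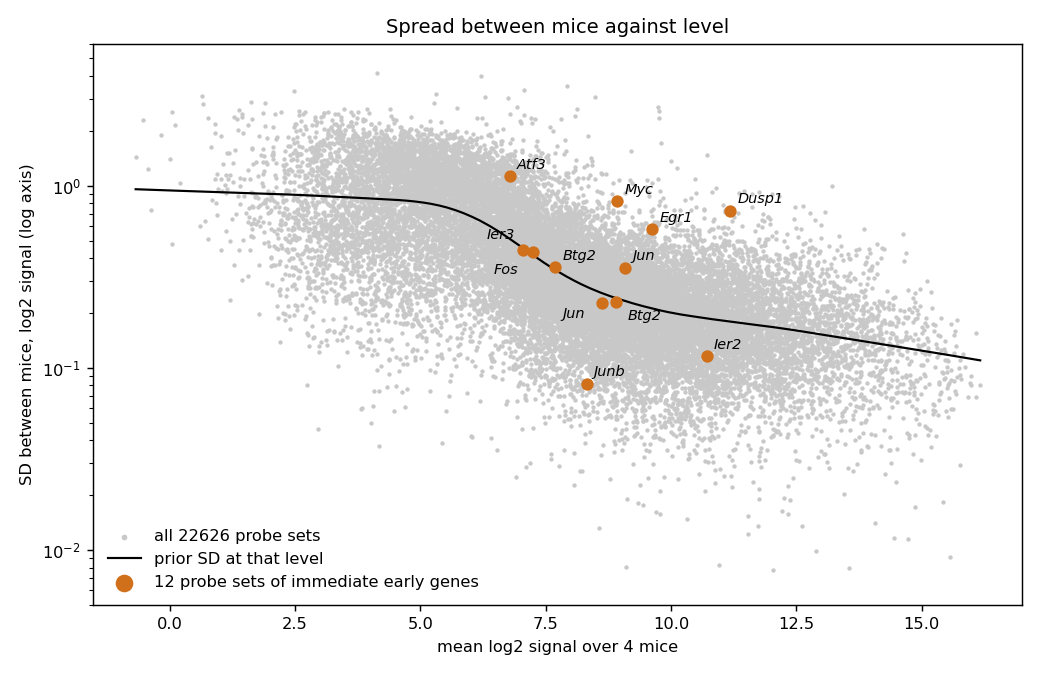
SD between the 4 mice on a log axis against mean log2 signal, for all 22626 probe sets in grey and the 12 probe sets of the immediate early genes in orange, with the prior SD fitted by limma as a line. Dusp1, Myc, Egr1 and Atf3 sit well above the line, Fos, Ier3 and Btg2 on or near it, and Junb and Ier2 below it.

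Over the 12 probe sets, 0 passed the limma test of excess spread after Benjamini-Hochberg adjustment, and 0% of all 22626 did, with adjusted p-values from 0.977 to 1 among the 12. At an unadjusted p under 0.05 there were 3, for Dusp1, Myc and Egr1 (unadjusted p of 0.00565, 0.0118 and 0.0291 by limma's test, n = 4, uncorrected and not called), beside 3.71% of all probe sets. Atf3 followed at 0.0633. The highest and lowest mouse differed by over 1 log2 (2-fold) in 4 of the 12, for Atf3, Myc, Dusp1 and Egr1, beside 32.3% of all probe sets. The share of the members was close to that background as deposited. With signals under 64 raised to 64, 16.5% of the 19556 probe sets that still varied had such a range. Without the 25% of lowest mean level, 16.7% of 16969 did. The members stayed at 4 of 12 in both. Neither Jun nor Btg2 passed the test of a difference shared by probe sets, and 0% of the 4956 genes tested did.

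The 10 members did not share an order of the mice. Mouse 1 was lowest in 4 members (Fos, Atf3, Ier2 and Myc) beside 28.9% of all genes, and highest in 2 (Junb and Egr1) beside 17.4%. Mouse 2 was highest in 5 members (Fos, Jun, Ier2, Btg2 and Myc) beside 29.8% of genes, and lowest in 2 (Egr1 and Ier3) beside 20%. Mouse 3 was highest in 2 (Atf3 and Ier3) beside 33.5%, and lowest in 2 (Jun and Dusp1) beside 20.4%. Mouse 4 was highest in 1 (Dusp1) beside 19.3%, and lowest in 2 (Junb and Btg2) beside 30.7%. The close orders turned with the scaling: after quantile normalization Fos was highest in mouse 4, and after this or scaling to equal array medians Btg2 was highest in mouse 1 and Junb lowest in mouse 2. Relative to the mean of the other 3 mice, the median member lay at -0.20, 0.28, 0.21 and -0.07 log2 in mice 1 to 4. The medians over all genes were -0.05, 0.06, 0.09 and -0.06. Some member medians moved by over 1.5 times when 1 animal was left out, and others did not. Without mouse 3 and without mouse 4, mouse 1 was at -0.20 and -0.15, and mouse 2 at 0.24 and 0.29. Mouse 3 was at 0.21 without mouse 2. Without mouse 1 the member medians were 0.12, 0.08 and -0.19 in mice 2 to 4. Leaving out mouse 2 gave -0.11 for mouse 1 and 0.07 for mouse 4. Leaving out mouse 4 gave 0.10 for mouse 3, and leaving out mouse 3 gave -0.01 for mouse 4. Single members lay far on both sides within 1 animal. In mouse 3 they ran from -1.24 for Dusp1 to 1.57 for Atf3, and in mouse 1 from -2.05 for Atf3 to 0.96 for Egr1.

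**Figure D3:**
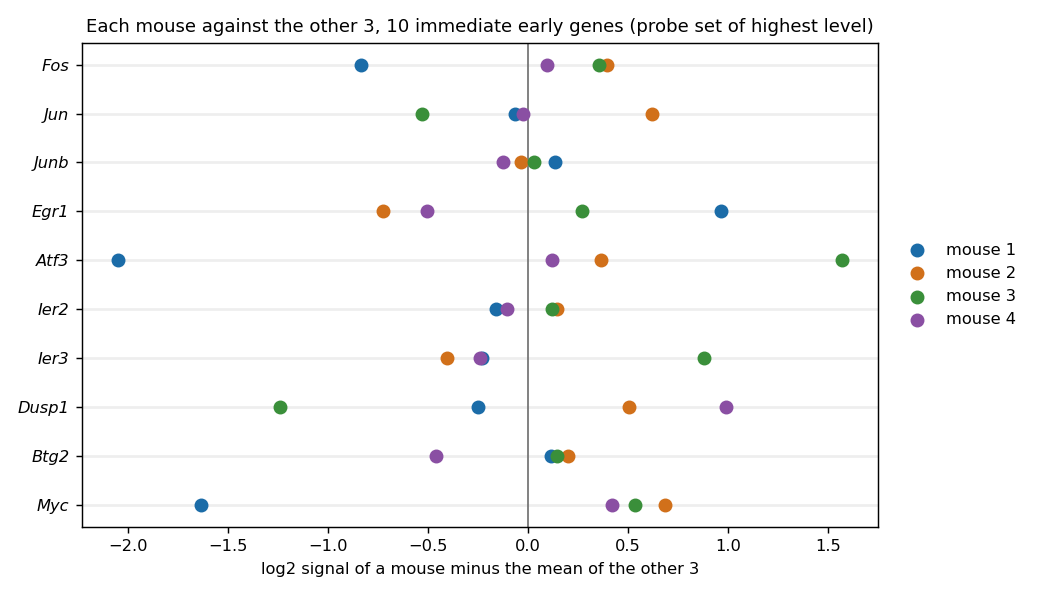
Log2 signal of each mouse minus the mean of the other 3, for the 10 genes at the probe set of highest level, with 1 point per mouse in its own colour. Mouse 1 lies far to the left for Atf3, Myc and Fos and to the right for Egr1, and mouse 3 lies to the right for Atf3 and Ier3 and to the left for Dusp1.

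In 8 lists of further pathway genes, 139 genes were measured, of which 0 passed the adjusted test, 8 had an unadjusted p under 0.05 by limma's test, beside 3.70% of all genes, and 24 had a range over 1 log2, beside 27% of all genes. Their median SD was 0.27. Among 21 other immediate early transcription factors, 3 had such a range. Klf4, a Krüppel-like factor, measured 7.11, 7.00, 8.03 and 6.59 in mice 1 to 4, and Id2, an inhibitor of bHLH factors, 11.56, 11.12, 10.88 and 11.88. Bhlhe40, a bHLH repressor, had the smallest spread, at 11.98 ± 0.08 (SD, n = 4).

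The other AP-1 subunits and partners had a median SD of 0.20. Of 10 measured, 2 had a range over 1 log2, and both were at low signals: Batf, an AP-1 partner of lymphoid cells, measured 4.23, 7.43, 5.66 and 4.68 in mice 1 to 4, and Maf, a large bZIP factor, 2.51, 5.29, 3.00 and 3.12. Mafg, a small partner without an activation domain, measured 10.96 ± 0.0083 (SD, n = 4). Feedback regulators and effectors had 6 of 39 over 1 log2, with a median SD of 0.27. Errfi1, a brake on the EGF receptor, measured 14.98 ± 0.03 (SD, n = 4). The widest were Ptgs2, the inducible cyclooxygenase, at 4.13, 6.87, 6.35 and 5.26, and Arc, a neuronal early gene, at 4.47, 6.69, 4.69 and 4.44, again at low signals.

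Upstream of the members, 3 of 17 kinases and promoter-binding factors had a range over 1 log2. Mrtfb, a coactivator of serum response factor, measured 7.72, 6.39, 6.71 and 4.91 in mice 1 to 4, and Crtc2, a CREB coactivator, 6.48, 5.65, 4.27 and 6.52. Elk3, a ternary complex factor, measured 8.36 ± 0.07 (SD, n = 4). Of 20 MYC partners and targets, 2 had such a range. Max, the obligate partner of MYC, was lowest in mouse 3, with 7.50, 7.26, 5.70 and 7.60 in mice 1 to 4. Mxd3, a MAX-binding repressor of the next largest SD, measured 8.26, 7.79, 8.38 and 7.41, a range of 0.97 log2 and so not over 1. Ldha, lactate dehydrogenase A, measured 14.41 ± 0.09 (SD, n = 4). The MYC list as a whole lay at a median of 0.03 in mouse 1, where Myc lay at -1.63, and 13 of its 20 genes were above the mean of the other 3 mice there. Without mouse 4 the list lay at -0.04 in mouse 1 with 8 of 20 above that mean, so its side of 0 rested on mouse 4. The median over all genes in mouse 1 was -0.05.

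**Figure D4:**
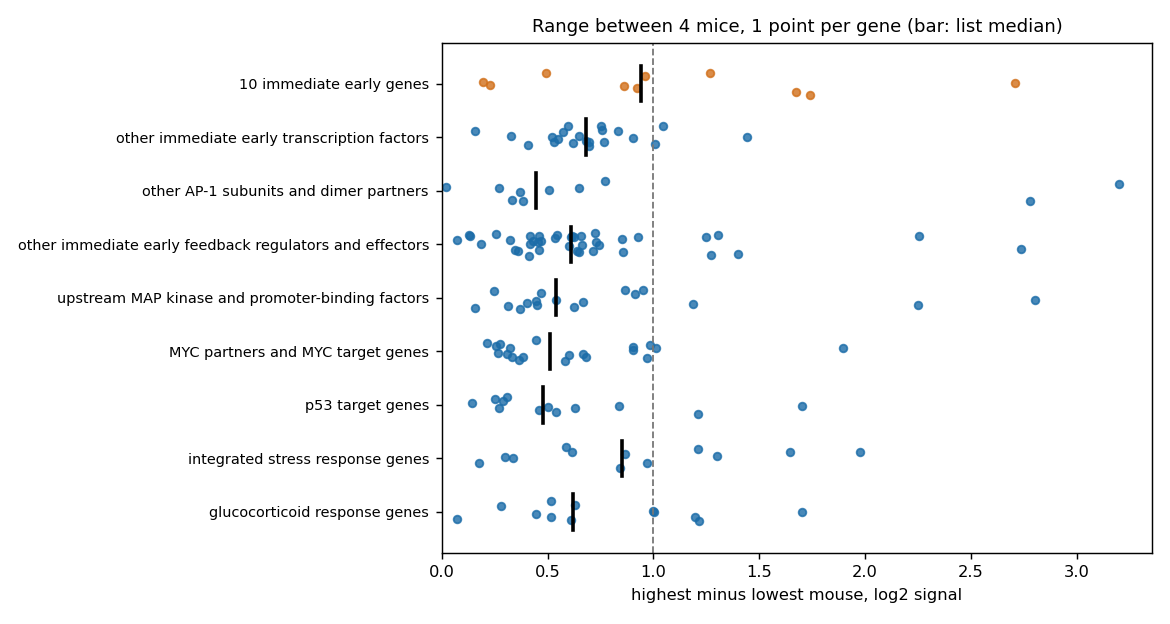
Highest minus lowest mouse in log2 signal, 1 point per gene at its probe set of highest level, for the 10 immediate early genes in orange and the 8 lists of pathway genes in blue, with each list's median as a bar and 1 log2 as a dashed line. The 10 genes have a median range of 0.94, against 0.59 for all genes.

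Lists of signals that also induce single members gave the following values. Of 12 p53 target genes, 2 had a range over 1 log2. Cdkn1a, the p21 cell cycle inhibitor, measured 11.86, 11.42, 10.16 and 10.85 in mice 1 to 4, lowest in mouse 3 like Dusp1, with an adjusted p of 0.977 by limma. Sesn2, a stress-induced regulator of TOR signalling, measured 7.81, 8.14, 8.09 and 6.93, and Ei24 13.85 ± 0.07 (SD, n = 4). Of 12 integrated stress response genes, in which Atf3 acts below Atf4, 4 had such a range. Ddit3, the CHOP factor, measured 8.72, 9.04, 7.40 and 8.90, lowest in mouse 3 where Atf3 was highest, and the hormone gene Fgf21 measured 7.16, 5.23, 6.72 and 7.21. Atf4 itself measured 11.11 ± 0.08 (SD, n = 4). Of 12 glucocorticoid response genes, the hormone class that also induces Dusp1, 4 had such a range. In mouse 1, 12 of 12 were above the mean of the other 3 mice, at a median of 0.34, and without mouse 4 these were 11 of 12 and 0.21. The median over all genes in mouse 1 was -0.05, and the share of all genes above that mean was not computed. Mouse 1 is the animal whose muscle and pancreas markers and control ratios stood apart, with muscle markers at -3.37 and the Gapdh ratio at 1.67, and their part in the glucocorticoid list was not tested. In mouse 3, where Dusp1 was lowest, the glucocorticoid list lay at -0.13 with 4 of 12 above the mean of the other 3. In mouse 4, where Dusp1 was highest, it lay at -0.18 with 4 of 12, but at 0.05 with 7 of 12 without mouse 1. The medians over all genes were 0.09 in mouse 3 and -0.06 in mouse 4. Zbtb16, a zinc finger repressor, measured 9.60, 9.43, 8.41 and 9.46 in mice 1 to 4. In mouse 3 the median of exocrine pancreas markers was -0.54 with 1 of 10 higher (-1.07 without mouse 1, and -0.27 without mouse 2), and hepatocyte markers were at -0.07 with 0 of 9 higher (-0.01 with 2 of 9 without mouse 2). Their part in the values of Dusp1, Cdkn1a and Ddit3 was not tested.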

How the data were processed

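Liver RNA of 4 ABCA1-TG mice was hybridised to 1 biotin-labelled array each. Per the labels' protocols, RNA was extracted with Trizol and 2 ug was amplified with RiboAmp. The deposited values are linear intensities, with 1 value for each probe set on each array. RMA is the tool named in the submitters' processing notes, with no version, but linear values on a common trimmed mean are not its usual output, so the summary method behind the low signals is uncertain. Each array had a mean of 1000 once its lowest and highest 2% of values were set aside. The background step is not stated in the sources at hand.

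Intensities were converted to log2 without a pseudocount or further normalization, after 64 control probe sets were left out. Symbols were taken from the platform annotation, and 0 changed when its Entrez identifiers were looked up among RefSeq genes. Of the 22626 probe sets, 20380 had 1 symbol, 691 several and 1555 none. Of 279 list entries 251 were measured. Where 1 value per gene was needed, the probe set of highest mean level was used.

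With 1 group, spread was tested: each probe set's variance between the 4 mice against the robust, level-dependent prior variance of limma 3.58.1 (R 4.3.3), by an upper-tail F-test, Benjamini-Hochberg adjusted over all probe sets, threshold 0.05. In 4956 genes that have 2 or more probe sets, a between-mouse difference that they share was set against their disagreement, with limma's moderated variance. Both tests were run on simulated data with planted differences. For excess spread, the planted sizes multiplied an SD drawn around the prior, and the smallest was about the relative spread of Dusp1. How often a spread of that size passes is not reported here, and smaller spreads of the other members were not covered. A member that did not pass, Dusp1 included, may still vary in excess. The number of arrays limits the precision: the 95% interval of an SD over 4 values spans 0.57 to 3.73 times that SD. The members and lists were chosen with earlier results of these data known. Besides the members, the 2 genes of largest and the 1 of smallest SD in each pathway list were named. Alternatives were other scalings, floors, filters, priors, probe set choices and leaving out each mouse.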

Additional observations from a re-analysis of the deposited data

Results flagged for a closer look

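In a group of 4, a sample was singled out when its gap to the nearest other sample as a share of the group's whole range exceeded Dixon's 95% critical value. This was so for 3 of the 12 probe sets of the immediate early genes, and for 5.90% of all 22626 probe sets, where chance flags about 1 in 20. Myc stood out in mouse 1, at 7.70 log2 against 9.24 to 9.44 in the others, with a gap of 0.885 of the range. Ier3 stood out in mouse 3, at 7.70 against 6.74 to 6.87, with a gap of 0.864 of the range. Btg2 on its probe set of higher mean signal stood out in mouse 4, at 8.57 against 8.99 to 9.06, with a gap of 0.865 of the range, whereas on its other probe set mice 2 and 4 were both low.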

How the results depend on the processing

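Under every alternative run, 0 of the 12 probe sets passed the adjusted test of excess spread, and 0 of Jun and Btg2 the test of a shared difference. The lowest adjusted p by limma over the 13 alternatives was 0.419 for Dusp1, 0.600 for Myc, 0.783 for Egr1 and 0.766 for Atf3, and the highest were 0.984, 1.00, 0.984 and 0.984. In these 4 genes the highest and lowest mouse stayed the same after quantile normalization and with arrays shifted to the same median. The other alternatives that kept all mice could not reorder the mice in a gene with 1 probe set. The number of the 12 probe sets with an unadjusted p under 0.05 was 3, but 0 with 1 prior for all levels. It was 4, with Atf3 added, without the 25% of probe sets of lowest mean level, and from 1 (without mouse 1) to 4 when 1 mouse was left out. The number with a range over 1 log2 was 4, and from 2 (without mouse 1) to 4 when 1 mouse was left out. Over all probe sets, that number was 7309 of 22626 as deposited. It was 3230 of 19556 with signals under 64 raised to 64, and 2837 of 16969 without the 25% of probe sets of lowest mean level. Without those 25%, 6 probe sets passed the test of excess spread, against 0 of all, and 3 genes the test of a shared difference, against 0 of all. The count of genes with a shared difference was 2 with the floor of 64 and 1 with a pseudocount of 16, and the cause was not tested. The median member in mouse 4 was -0.07 as deposited but above 0 at 0.02 after quantile normalization, 0.075 with arrays shifted to the same median and 0.07 without mouse 2, and -0.19 without mouse 1. Low signals limit Atf3, Fos and Ier3 most. No paired analysis was possible because the samples form 1 group.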

Other observations

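Of the 139 further pathway genes, 8 had an unadjusted p under 0.05 by limma's test, and 6 of these 8 were lowest in mouse 3, the mouse in which Dusp1 was lowest. Over all genes, 104 of the 459 at an unadjusted p under 0.05 were lowest in mouse 3, or 22.7%. The 6 are Id2, Cdkn1a, Ddit3 and Zbtb16, whose values are given above, and Fkbp5 and Zfp36l2, which were named after their values were seen. Fkbp5, a chaperone of the glucocorticoid receptor, measured 12.79, 12.63, 11.57 and 12.29 log2 in mice 1 to 4. Zfp36l2, which binds AU-rich elements and speeds mRNA decay, measured 11.15, 11.44, 10.49 and 11.79. Neither passed the test after adjustment over all probe sets (adjusted p = 0.977 for both, limma).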
